A study of Mus musculus with 8 samples.

Results

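The genes described here are histone genes of the mouse, most of them canonical, which encode the linker histone H1 and the core histones H2A, H2B, H3 and H4. They were chosen by symbol alone, as the genes of the deposited mRNA table whose names begin with H1f, H2ac, H2bc, H3c or H4c and a digit, or with the older form Hist and a cluster number. The rule found 68 genes among the 22298 of the table, of which 10 encode H1, 17 H2A, 17 H2B, 12 H3 and 12 H4. By their older names 64 of them belong to the histone gene clusters, and the other 4, all of them H1 genes, are H1f0, H1f7, H1f8 and H1f10. The study followed B cell development in the bone marrow of wild type female C57BL/6 mice aged 8 to 10 weeks. Pro-B cells were sorted as B220+IgM-CD43+, pre-B cells as B220+IgM-CD43-, immature B cells as B220+IgM+CD43- and mature B cells as B220hi IgM+CD43-, from live cells. Each stage was a pool of cells from 3 mice, from which 1 library of rRNA-depleted long RNA and 1 of small RNA were made, so that the series has 8 libraries. The values below come from the 4 libraries of long RNA. No stage had a replicate, so no difference has a replicate check, no p-value is given, and intervals cover counting error only.

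Histones package DNA into nucleosomes, in which DNA is wound around a core of H2A, H2B, H3 and H4, while H1 binds the linker DNA at the entry and exit of the nucleosome. Most canonical histone genes are transcribed during S phase, when newly copied DNA has to be packaged, and their mRNAs end in a stem-loop in place of a poly(A) tail. The stem-loop is bound by the protein SLBP and the mRNAs are degraded when DNA synthesis ends. An rRNA-depleted library, unlike one selected for poly(A), can hold such mRNAs. In the bone marrow, large pro-B and early pre-B cells divide, whereas small pre-B, immature and mature B cells are mostly at rest.

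The promoters of 62 of the 68 genes were found in RefSeq, 55 by symbol and 7 by an older name. Each window ran from 250 bases before to 50 bases after the annotated start, on the assembly GRCm38.p6. Of these windows 50 lie on chromosome 13, 8 on chromosome 3, 2 on chromosome 6 and 2 on chromosome 15. The windows are shown for the gene of each class with the most counts in the sum of the 4 libraries, which need not lead its class in each library. They are H1f2 (ENSMUSG00000036181, chr13:23738557-23738856, plus strand), H2ac18 (ENSMUSG00000064220, chr3:96245247-96245546, plus strand), H2bc12 (chr13:22035571-22035870, plus strand), H3c6 (ENSMUSG00000069273, chr13:23562336-23562635, minus strand) and H4c4 (chr13:23581318-23581617, plus strand). Capitals mark every match, on either strand, to the CCAAT box, to the core TATAAA of the TATA box, to the octamer motif ATTTGCAT or to the H1 box motif AAACACA.
H1f2: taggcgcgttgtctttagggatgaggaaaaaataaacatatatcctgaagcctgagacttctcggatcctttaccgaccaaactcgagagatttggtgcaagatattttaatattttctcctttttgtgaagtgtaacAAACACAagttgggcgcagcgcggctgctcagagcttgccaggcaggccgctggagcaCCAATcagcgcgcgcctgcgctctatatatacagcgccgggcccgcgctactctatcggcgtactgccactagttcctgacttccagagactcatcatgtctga
H2ac18: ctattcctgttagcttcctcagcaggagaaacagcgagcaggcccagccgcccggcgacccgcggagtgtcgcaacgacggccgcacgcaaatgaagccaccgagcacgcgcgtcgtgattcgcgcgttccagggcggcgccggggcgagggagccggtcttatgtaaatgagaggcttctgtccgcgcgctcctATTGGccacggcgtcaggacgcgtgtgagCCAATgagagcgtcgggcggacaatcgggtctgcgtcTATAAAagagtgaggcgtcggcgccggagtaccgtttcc
H2bc12: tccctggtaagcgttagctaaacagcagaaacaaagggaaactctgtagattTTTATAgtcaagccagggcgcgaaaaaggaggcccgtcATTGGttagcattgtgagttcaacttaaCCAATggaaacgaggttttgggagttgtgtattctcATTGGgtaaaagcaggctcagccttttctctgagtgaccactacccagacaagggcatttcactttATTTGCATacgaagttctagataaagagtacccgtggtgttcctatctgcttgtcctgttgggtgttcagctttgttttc
H3c6: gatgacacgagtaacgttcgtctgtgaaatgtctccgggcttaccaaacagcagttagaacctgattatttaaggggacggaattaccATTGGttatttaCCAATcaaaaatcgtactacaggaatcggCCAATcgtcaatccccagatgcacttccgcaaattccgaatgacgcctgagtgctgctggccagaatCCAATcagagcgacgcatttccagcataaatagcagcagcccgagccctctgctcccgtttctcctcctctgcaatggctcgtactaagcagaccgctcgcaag
H4c4: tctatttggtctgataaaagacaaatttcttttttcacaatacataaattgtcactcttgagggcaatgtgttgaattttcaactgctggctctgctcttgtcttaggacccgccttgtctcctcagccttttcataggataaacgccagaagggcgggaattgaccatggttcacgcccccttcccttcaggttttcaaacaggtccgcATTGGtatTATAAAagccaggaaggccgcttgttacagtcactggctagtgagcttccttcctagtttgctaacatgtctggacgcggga
CCAAT, the box bound by NF-Y, was present in 51 of the 62 histone promoters (82.3%) against 37.9% of the 27025 promoters of all genes. It was found in each of the 16 H2A, 15 H2B and 10 H3 promoters, in 7 of 10 H1 promoters and in 3 of 11 H4 promoters. TATAAA was present in 54.8% of histone promoters against 14.2% of all promoters. Matches to each motif were counted at any place in the window, and the TATAAA of H2ac18 begins 11 bases after the annotated start. ATTTGCAT, the octamer recognised by the factors Oct-1 and Oct-2, was present in 19.4% against 1.75%. The 12 promoters with the octamer were 6 of H2A genes and 6 of H2B genes, and no promoter of an H1, H3 or H4 gene held it. AAACACA, known as the H1 box, was present in 5 of 10 H1 promoters, in 14.5% of all histone promoters and in 7.14% of the promoters of all genes. The windows of different histone genes are related in sequence, and a match describes letters, not binding. Windows of some neighbouring H2A and H2B genes also overlap, such as H2ac12 with H2bc12 and H2ac8 with H2bc8. The same letters can then be counted for both genes, so the counts of promoters are not independent.

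The depth behind these genes differed between libraries. The mRNA table summed to 867920 estimated counts in pro-B, 240231 in pre-B, 223495 in immature and 849350 in mature B cells, while the mRNA and lncRNA tables together summed to between 3450657 and 3709988 in each. The mRNA table therefore held 23.7% of the listed counts in pro-B and 23.5% in mature B cells, but 6.48% in both pre-B and immature B cells. For this reason levels are given on 2 scales, per 1000000 counts of the mRNA table (CPM) and per 1000000 listed counts of mRNA and lncRNA together. The limit that a count of 0 allows, 3 counts, is 3.46 CPM in pro-B, 12.5 in pre-B, 13.4 in immature and 3.53 in mature B cells. Markers followed the labels in part: Dntt, which encodes the terminal transferase of pro-B cells, was counted in the pro-B library alone (845 counts), and Fcer2a, which encodes CD23, in the mature library alone (358 counts). The 4 pre-B markers summed to 1278 CPM in pro-B and 1066 in pre-B cells, against the labels. By CPM Rag1 alone, which encodes a V(D)J recombinase subunit, had this order, with 918 CPM in pro-B and 372 in pre-B cells. Rag2 (109 and 316 CPM), Vpreb3 (182 and 295) and Il2ra (68.0 and 83.3) were higher in pre-B cells on that scale. Per listed count the 4 summed to 303 in pro-B and 69.1 in pre-B cells. On this scale 3 of the 4 were called lower and none higher, where 80.7% and 1.85% of all genes were. The 4 immature B markers summed to 4337 CPM in pro-B, 7530 in pre-B, 9504 in immature and 5087 in mature B cells. Per listed count the sums were 1027.5, 488, 616 and 1195 in the same order, highest in mature B cells. By CPM Cd93 alone among these markers went against its label, highest in pro-B cells with 429 CPM against 94.0 in immature B cells. Ms4a1, Igkc and Ighm were higher by CPM in immature than in pro-B cells. The libraries are of bulk cells, in which fewer cells of a type and less RNA per cell cannot be told apart.

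Histone mRNA was lower in immature than in pre-B cells and lower in mature than in pro-B cells on both scales. The pre-B vs pro-B and the mature vs immature comparisons changed direction between the scales. All 68 genes together had 3893 counts in pro-B, 1960 in pre-B, 697 in immature and 1307 in mature B cells. This was 4486 CPM in pro-B, 8158 in pre-B, 3118 in immature and 1539 in mature B cells, so that the pre-B library was highest and the mature library lowest. Per 1000000 listed counts the same genes had 1063 in pro-B, 528 in pre-B, 202 in immature and 362 in mature B cells, so that the pro-B library was highest and the immature library lowest. The summed FPKM, which is scaled by transcript length and follows the larger total, was 1138, 535, 188 and 348 in the same order.

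Between pro-B and mature B cells, whose mRNA totals were nearly equal, histone mRNA was 2.91-fold lower in mature B cells by CPM (log2 ratio -1.54, 95% interval -1.63 to -1.45) and 2.94-fold lower per listed count (-1.56). Between pre-B and immature B cells, the other pair of like totals, it was 2.62-fold lower in immature B cells on both scales (log2 ratio -1.39, interval -1.51 to -1.26 by CPM). From pro-B to pre-B cells the log2 ratio was 0.86 (interval 0.78 to 0.94) by CPM and -1.01 per listed count. Over the 11 genes with whole counts alone, an alternative chosen after seeing the data, it was 0.076 by CPM. From immature to mature B cells the log2 ratio of all histone genes was -1.02 (interval -1.15 to -0.88) by CPM and 0.84 per listed count. The change of scale moved the median of all genes tested as well, by -1.87 on the log2 scale for pre-B vs pro-B and by 1.86 for mature vs immature B cells, and by -0.01 for mature vs pro-B. A change of scale moves every gene alike, so the distance of the histone genes from the median of all genes is kept.

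**Figure D1:**
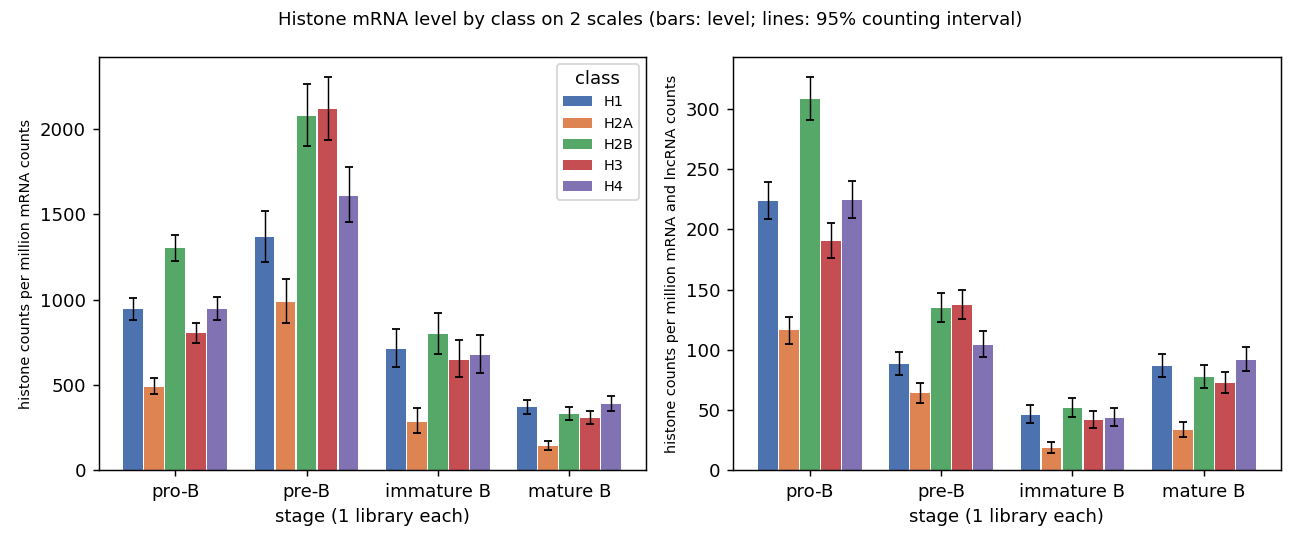
Histone counts of each class per 1000000 mRNA counts (left) and per 1000000 counts of mRNA and lncRNA together (right), in 1 library per stage, with bars for the level and lines for the 95% counting interval. By CPM the bars of all 5 classes are tallest in pre-B cells, whereas on the right they are tallest in pro-B cells, and on both sides immature is below pre-B and mature below pro-B.

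Gene by gene, the median of the histone genes lay above that of all genes tested in pre-B vs pro-B and below it in the other 3 comparisons. A gene was called where its ratio was at least 2 in size and the 95% interval left out 1, among genes with at least 10 counts in 1 of the 2 libraries. For pre-B vs pro-B, 56 of the 68 genes could be tested, and by CPM 23 were called higher in pre-B cells and 5 lower, where 13.3% of all genes tested were called higher and 25.2% lower. Their median log2 ratio was 0.71 against -0.44 for all genes. Per listed count 2 were called higher and 33 lower, where 1.85% and 80.7% of all genes were, and the medians were -1.16 and -2.31. For immature vs pre-B, 48 genes were tested, of which 3 were called higher and 32 lower on both scales, where 14.7% of all genes were called higher and 15% lower. The median log2 ratio was -1.63 against -0.02 for all genes.

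For mature vs immature B cells, 43 histone genes were tested, and by CPM 2 were called higher and 16 lower, where 21.1% of all genes were called higher and 16% lower. The median log2 ratio was -0.94 against 0.27 for all genes. Per listed count 18 were called higher and 3 lower, where 76.6% and 2.49% of all genes were, and the medians were 0.92 and 2.13. For mature vs pro-B, 55 were tested, none was called higher and 45 were called lower on both scales, where by CPM 11.6% of all genes were called higher and 22.2% lower. The median was -1.76 against -0.19. Of the 68 genes, 6 had no count in any library, 58 had at least 10 counts in 1 or more libraries and 19 had at least 10 in all 4, so the counts of calls leave out the genes of low level.

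**Figure D2:**
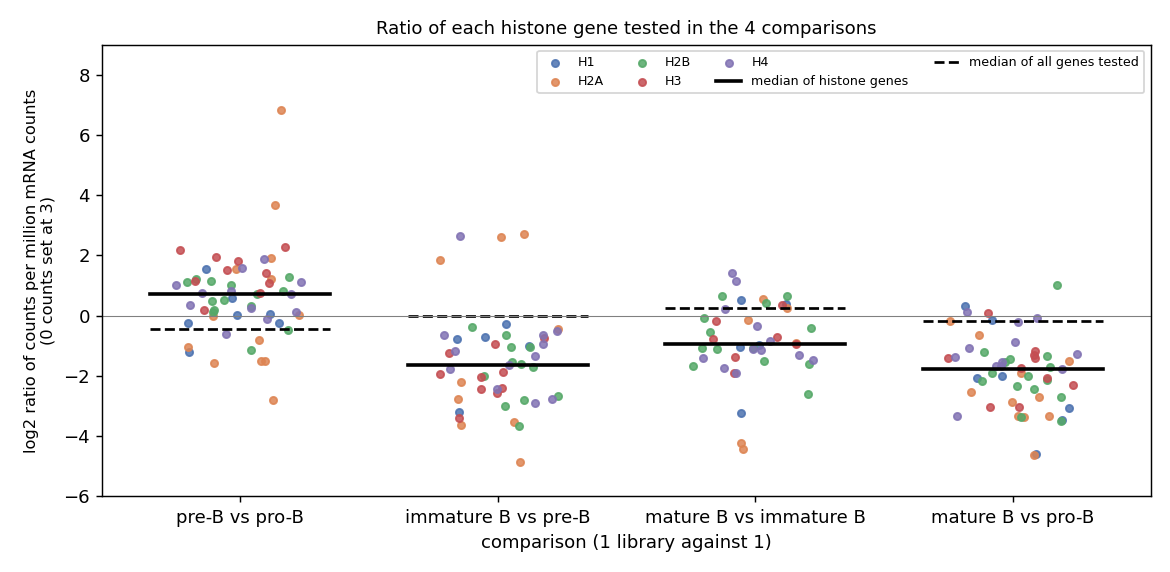
Log2 ratio of CPM for each histone gene tested in the 4 comparisons of 1 library against 1, with points coloured by class, a solid line at the median of the histone genes and a dashed line at the median of all genes tested. The solid line is above the dashed line for pre-B vs pro-B (0.71 against -0.44) and below it in the other comparisons; per listed count all points of pre-B vs pro-B shift by -1.87 and all points of mature vs immature B cells by 1.86.

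Transcript length moved with part of these ratios. The length that counts and FPKM imply for a gene was used to compare histone genes with other genes of like implied length. For the 60 histone genes with an implied length it ran from 469 to 11132 bases. Whether these lengths are those of the histone mRNAs in the cells was not tested. In pre-B vs pro-B, genes that are no histone genes had a median log2 ratio by CPM of 0.45 at 500 to 1000 bases (230 genes) and of -0.82 above 4000 bases (3203 genes). The 33 histone genes of 500 to 1000 bases had a median of 0.48, close to the other genes of that length. At 1000 to 2000 bases 13 histone genes had a median of 1.10 against -0.05 for the other genes, and at 2000 to 4000 bases 8 had 0.92 against -0.44. In mature vs immature B cells the other genes of 500 to 1000 bases had a median of -0.48 and the 23 histone genes -0.86. In the pairs of like totals, other genes showed little of this trend. In immature vs pre-B, the other genes of 500 to 1000 bases had a median of 0.06 and the 27 histone genes -1.77. In mature vs pro-B, the medians were -0.06 for the other genes and -1.96 for the 32 histone genes. The part of length in the ratios of pre-B vs pro-B and of mature vs immature B cells was not tested.

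**Figure D3:**
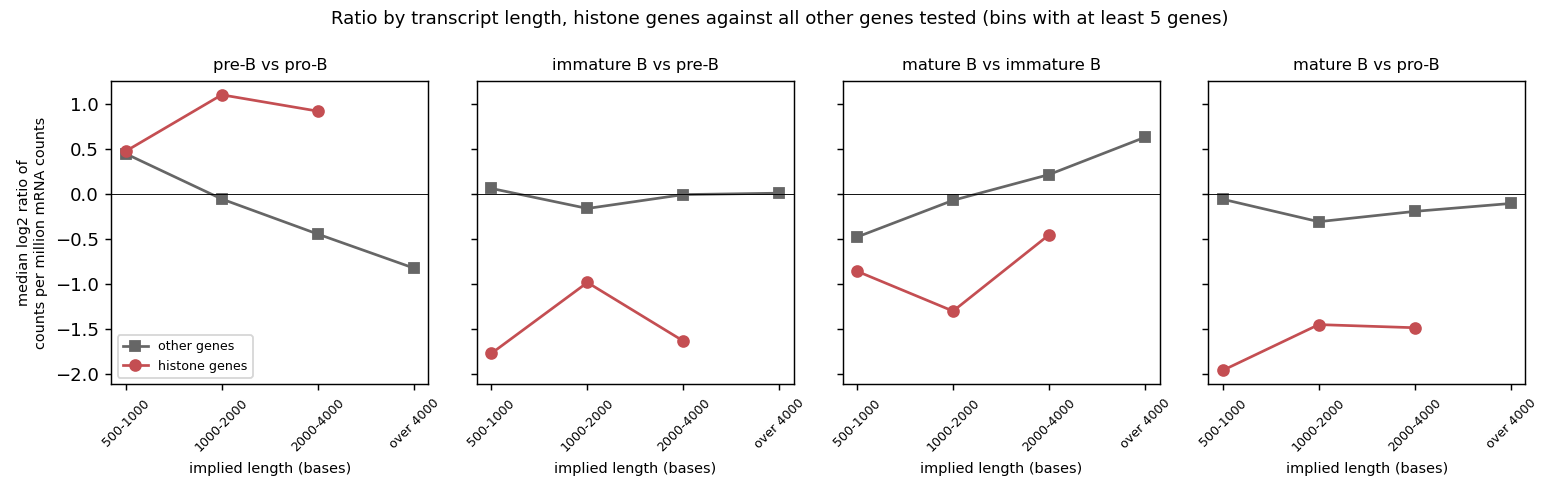
Median log2 ratio of CPM by implied transcript length in the 4 comparisons, with squares for genes that are no histone genes and circles for histone genes, for bins with at least 5 genes. At 500 to 1000 bases the 2 medians nearly meet in pre-B vs pro-B (0.45 and 0.48), while in immature vs pre-B and mature vs pro-B the histone genes are below at each length shown; the bins of histone genes above 1000 bases hold 13 genes or fewer.

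The make-up of the histone counts does not depend on the total to which a library is scaled, although it does depend on scaling by length. H3 gave 17.9% of the histone counts in pro-B cells (Wilson 95% interval 16.8 to 19.2), 25.9% in pre-B, 20.8% in immature and 20.02% in mature B cells. H2B gave 29.0%, 25.4%, 25.6% and 21.4% in the same order, and was the class with the most counts in pro-B cells. H4 gave 21.1%, 19.7%, 21.7% and 25.4%, and was the class with the most counts in mature B cells. H1 gave 21.0%, 16.7%, 22.9% and 23.9%, and H2A gave the fewest counts, with 10.9%, 12.1%, 9.11% and 9.22%. By summed FPKM, which takes out length, H1 gave the least, with 9.25%, 7.19%, 10.3% and 9.99%, and H2A gave 13.9%, 15.1%, 13.3% and 12.7%. H3 was still at its highest share in pre-B cells by FPKM (24.1%, against 16.9% in pro-B cells), where H2B then gave more (29.3%). By CPM, H3 had the largest ratio of the classes in pre-B vs pro-B, with 2.63-fold (log2 ratio 1.40, interval 1.23 to 1.56), and H1 the smallest, with 1.45-fold (0.53, interval 0.34 to 0.72). Per listed count these were -0.47 for H3 and -1.34 for H1, in the same order but below 1-fold. Between pro-B and mature B cells, H2B differed most, at 3.95-fold lower in mature B cells (log2 ratio -1.98), and H4 least, at 2.42-fold lower (-1.28), with intervals that do not overlap (-2.17 to -1.79 and -1.47 to -1.09).

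**Figure D4:**
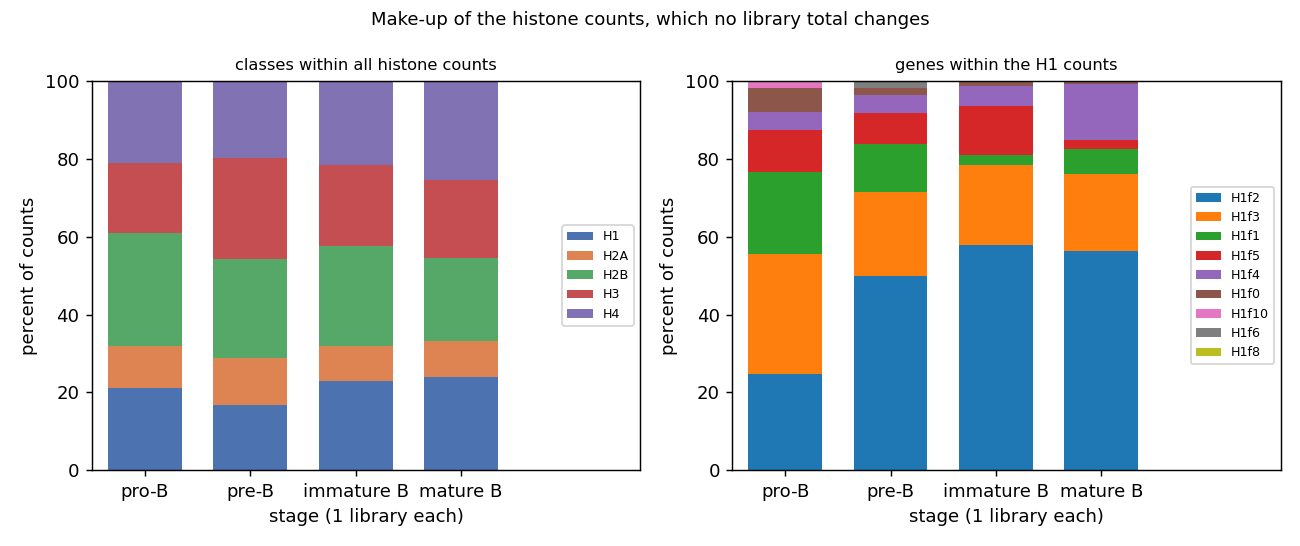
Percent of all histone counts by class (left) and of the H1 counts by gene (right) in 1 library per stage. The H3 part is widest in pre-B cells (25.9%), and H1f2 goes from 24.6% of the H1 counts in pro-B cells to 49.8% in pre-B, 57.8% in immature and 56.5% in mature B cells.

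The make-up of H1 differed between pro-B cells and the later stages. H1f2, which encodes the somatic linker histone H1.2, had 202 counts in pro-B, 164 in pre-B, 92.1 in immature and 177 in mature B cells, the most of any histone gene in the sum of the 4 libraries, while H1f3 had more in pro-B cells. It made up 24.6% of the H1 counts in pro-B cells (interval 21.8 to 27.7), against 49.8%, 57.8% and 56.5% in the later stages, whose intervals lie above that of pro-B cells. Its CPM was 232, 681, 412 and 208, so that by CPM it was nearly as high in mature as in pro-B cells (log2 ratio -0.16, interval -0.46 to 0.14). H1f3, another somatic H1, had 253, 71.3, 33.0 and 61.3 counts in the same order, and its part of the H1 counts was 30.9% in pro-B cells and between 19.6% and 21.7% later. H1f1, a further somatic H1, had 172, 40, 4 and 20 counts. Its part was 21.0%, 12.2%, 2.51% and 6.39%, lower in immature and mature than in pro-B cells beyond the counting intervals, and its ratio was 9.30-fold lower in immature than in pre-B cells and 8.42-fold lower in mature than in pro-B cells by CPM.

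H1f5 had 90, 26, 20 and 8 counts in pro-B, pre-B, immature and mature B cells, and was 11.01-fold lower in mature than in pro-B cells by CPM. It was also 9.50-fold lower in mature than in immature B cells, and was called lower there on both scales. H1f4 had 37.0, 15.3, 8.33 and 45.1 counts and was not called in mature vs pro-B (log2 ratio 0.32, interval -0.35 to 0.98), while its part of the H1 counts was 14.4% in mature B cells and between 4.51% and 5.22% before. H1f0, the replacement H1 that is made outside S phase from a polyadenylated mRNA, had 50, 6, 2 and 2 counts and was 24.5-fold lower in mature than in pro-B cells by CPM (log2 interval -7.70 to -2.68). H1f10, another H1 gene outside the clusters, was counted in pro-B cells alone, with 13 counts. H1f6, the testis-specific H1t, had 6 counts in pre-B cells alone, H1f8, the oocyte H1, had 2 counts in pro-B cells alone, and H1f7 had none. The counts of H1f1, H1f5, H1f0 and H1f10 were whole numbers in each library, whereas those of H1f2, H1f3 and H1f4 were not.

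H2A was the class with the fewest counts, and values of its single genes are uncertain. Of the 62 histone genes with any count, 51 had counts that were not whole in some library (82.3%), against 19.2% of all genes with counts. How reads of near-identical copies were assigned was not tested. H2ac18 had the most counts among the H2A genes in the sum of the 4 libraries, with 52.1 in pro-B, 14.4 in pre-B, 9.97 in immature and 45.5 in mature B cells. Its CPM was 60.1, 60.1, 44.6 and 53.6, the evenest of the H2A genes with counts in all libraries, and its part of the H2A counts was 12.3% in pro-B and 37.8% in mature B cells. H2ac4 had 57.7, 37.1, 0 and 5.51 counts, and was 10.2-fold lower in mature than in pro-B cells by CPM. H2ac8 had 4.18, 14.9, 0 and 2.54 counts, and was 12.9-fold higher in pre-B vs pro-B by CPM and also called higher per listed count (log2 ratio 1.82, interval 0.24 to 3.94).

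Some H2A genes were at 0 in some libraries and well counted in others. Hist1h2ao had 0 counts in pro-B, 94.1 in pre-B, 0 in immature and 9.35 in mature B cells. With 0 set at the floor of 3 counts, it was 113-fold higher in pre-B vs pro-B by CPM (log2 interval from 6.50). Hist1h2ap had the opposite order, with 76.5, 0, 16.9 and 0 counts, and was 7.06-fold lower in pre-B vs pro-B with the same floor (log2 interval up to -2.48). Hist1h2an had 39.2, 40.4, 0 and 10.2 counts, and was 12.5-fold lower in immature than in pre-B cells with that floor (log2 interval up to -3.27). These genes have near-identical copies and counts that were not whole, so their single values are uncertain, and the sum over the class is given beside them. Of the 10 histone genes with at least 10 counts in exactly 1 library, 7 were H2A genes. H2ac10 (18.7 counts in pro-B), H2ac11 (22.3), H2ac12 (30.9) and H2ac19 (30.9) reached this level in pro-B cells, H2ac8 and Hist1h2ao in pre-B cells and H2ac13 in immature B cells, with 18.1 counts. The other 3 were H1f0 and H1f10 in pro-B cells and H2bc21 in mature B cells.

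The summed H2A genes had 490 CPM in pro-B, 988 in pre-B, 284 in immature and 142 in mature B cells. The class was 3.48-fold lower in immature than in pre-B cells (log2 ratio -1.80, interval -2.21 to -1.38) and 3.45-fold lower in mature than in pro-B cells (-1.79, interval -2.10 to -1.50). Per listed count the 2 ratios were -1.80 and -1.80.

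H2B genes were nearly all lower in mature than in pro-B cells. The class had 1301 CPM in pro-B, 2076 in pre-B, 797 in immature and 329 in mature B cells. H2bc12 had 159, 61.2, 27.9 and 34.9 counts, and was 4.45-fold lower in mature than in pro-B cells by CPM (log2 ratio -2.15, interval -2.72 to -1.62). H2bc8 had 117, 75.3, 33.9 and 21.0 counts, and H2bc11 had 116, 46.5, 33.0 and 44.5. In mature vs pro-B, 14 of the 15 H2B genes tested were called lower on both scales, where 22.2% of all genes were by CPM and 22.3% per listed count. H2bc15 had the largest ratio of them, with 82.6, 55.2, 6.39 and 7.13 counts and 11.3-fold lower CPM in mature than in pro-B cells. H2bc13 had 73.2, 41.2, 3 and 6.96 counts, and was 12.8-fold lower in immature than in pre-B cells (log2 interval -6.004 to -2.02). H2bc21 was the H2B gene not called, with 6, 0, 2 and 12 counts (log2 ratio of mature vs pro-B 1.03, interval -0.49 to 2.73).

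H3 was the class with the highest summed ratio in pre-B vs pro-B, although the highest ratios of single genes were those of the H2A genes Hist1h2ao and H2ac8. By CPM, 8 of the 10 H3 genes tested were called higher in pre-B cells, against 1 of 7 H1, 5 of 13 H2A, 5 of 14 H2B and 4 of 12 H4 genes, where 13.3% of all genes were. The H1 count is near that share. Per listed count none of the 10 H3 genes was called higher and 2 were called lower, where 1.85% and 80.7% of all genes were. H3c6 had 77.9 counts in pro-B, 98.6 in pre-B, 55.2 in immature and 80.9 in mature B cells. The counts themselves were highest in the pre-B library, whose mRNA total was low but whose listed total was not. By CPM H3c6 was 4.57-fold higher in pre-B vs pro-B (log2 ratio 2.19, interval 1.75 to 2.64). Per listed count its log2 ratio was 0.32 (interval -0.12 to 0.77). Its part of the H3 counts was 11.2%, 19.4%, 38.2% and 30.9%, and it was not called in mature vs pro-B (log2 ratio 0.09, interval -0.38 to 0.55). H3c15 had 136, 63.1, 14.3 and 31.5 counts, and was 4.23-fold lower in mature than in pro-B cells. H3c13 had 119, 37.7, 9.08 and 43.8 counts and was 2.66-fold lower. H3c8 had 25 counts in pro-B and 33.7 in pre-B cells, 0 in immature and 0 in mature B cells. With 0 set at the floor, it was 8.16-fold lower in mature than in pro-B cells by CPM. It was 4.87-fold higher in pre-B vs pro-B by CPM (0.41 on the log2 scale per listed count, not called).

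H4 genes all encode the same protein, and the 12 genes all had counts in pro-B, pre-B and mature B cells. H4c4 had 124 counts in pro-B, 41.0 in pre-B, 27 in immature and 47.0 in mature B cells, and was 2.58-fold lower in mature than in pro-B cells by CPM. Hist1h4m had 103, 47.7, 23 and 48.3 counts and was 2.09-fold lower. H4c12 differed more, with 117, 65.8, 8.15 and 11.2 counts and 10.2-fold lower CPM in mature than in pro-B cells. H4c1 had 62.5, 22.1, 0 and 25.4 counts, and Hist1h4n had 57.9, 17.3, 0 and 30.6. Both were at 0 in the immature library. With 0 set at the floor, the mature library was 2.23-fold higher for H4c1 (log2 interval from 0.73) and 2.68-fold higher for Hist1h4n (from 1.06) by CPM. H4c9 went against its class in immature vs pre-B, with 11.5, 2.07, 12.04 and 12.3 counts and a 6.25-fold higher CPM in immature than in pre-B cells (log2 interval 0.52 to 5.89).

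Of the 55 genes tested in mature vs pro-B, 4 had a ratio above 1-fold, and none of them was called. They were H1f4, H3c6, H4c9 and H2bc21. H2ac18 (log2 ratio -0.16, interval -0.75 to 0.45), H4c3 (-0.21, interval -0.87 to 0.40) and H4c14 (-0.08, interval -0.78 to 0.61) lay just under 1-fold. By CPM, 42 of the 58 genes with at least 10 counts in some library were highest in pre-B, 12 in pro-B, 3 in immature and 1 in mature B cells. Per listed count 47 were highest in pro-B, 7 in pre-B, 2 in immature and 2 in mature B cells. Chromosomes were known for the 62 genes with a matched promoter alone. Of these, the 50 on chromosome 13, which carries the large histone cluster, summed to 3544, 6711, 2481 and 1205 CPM, and the 8 genes on chromosome 3 to 507, 580, 221 and 186.

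**Figure D5:**
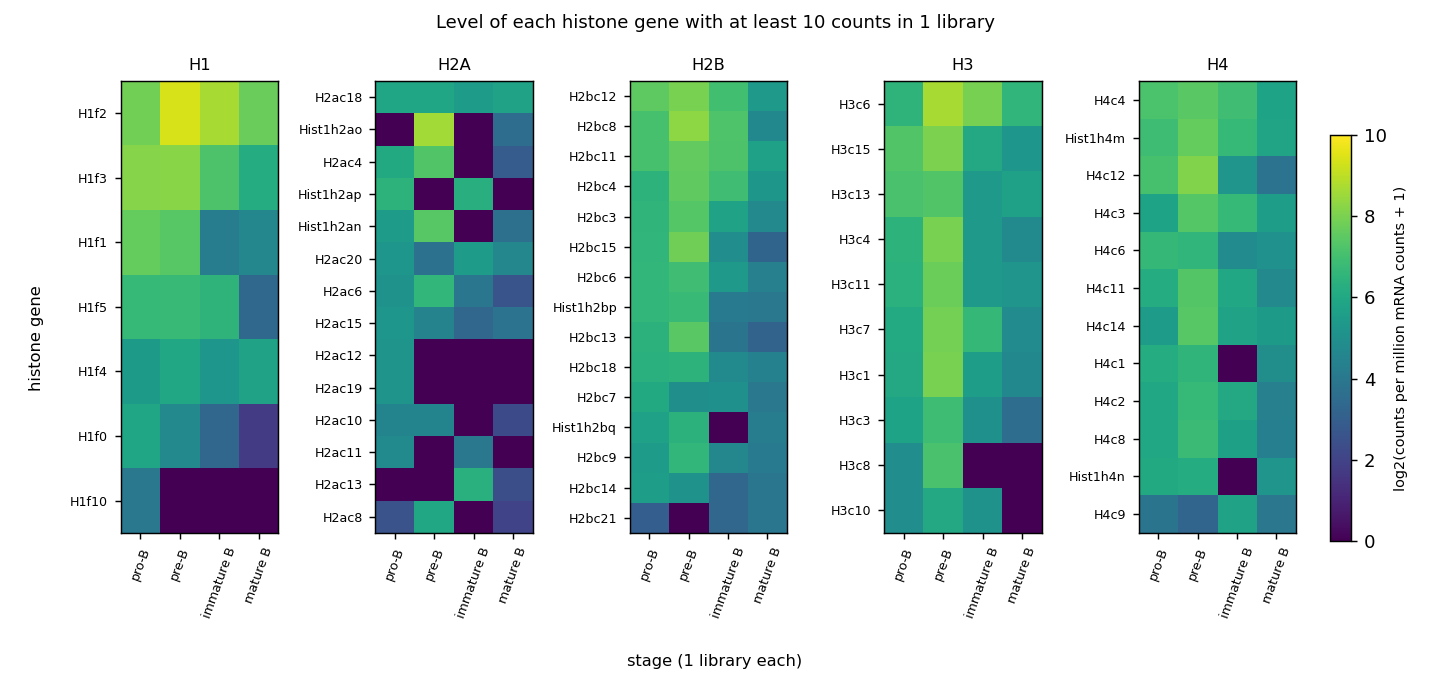
Level of the 58 histone genes with at least 10 counts in 1 library, as log2(CPM + 1), with genes in rows ordered by their counts within each class and 1 library per stage in columns. The pre-B column is brightest for 42 of the 58 genes by CPM (7 of 58 per listed count), and dark cells mark 0 counts, which are most frequent among the H2A genes.

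Genes outside the rule that encode variants of histones or process or carry histones are nearest in function to the genes of the rule. The 13 variant genes, which are mostly expressed throughout the cell cycle, summed to 2422 CPM in pro-B, 3391 in pre-B, 2561 in immature and 2051 in mature B cells. Per listed count the sums were 574, 220, 166 and 482, so that the pro-B library was highest and the immature library lowest. H3f3a, which encodes the replacement histone H3.3, had 892, 393, 342 and 957 counts, H3f3b, which encodes the same protein, had 620, 207, 115 and 550, and Macroh2a1, which encodes macroH2A, had 213, 71.9, 30.9 and 116. In mature vs pro-B, 3 of 8 variant genes tested were called lower and none higher, where 22.2% and 11.6% of all genes were. The log2 ratio of the sum was -0.24 and the median of the 8 genes -0.88. Most of the sum came from H3f3a and H3f3b. Without these 2, a choice made after their values were seen, the log2 ratio was -1.30. That of the histone genes of the rule was -1.54 (interval -1.63 to -1.45). The histone genes of the rule, a few of them not canonical, had 1.85 counts per variant count in pro-B cells, 2.41 in pre-B, 1.22 in immature and 0.751 in mature B cells. By summed FPKM the ratios were 3.24, 3.73, 1.69 and 1.12.

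The 18 genes of histone transcription, 3' end processing and decay summed to 2639, 1349, 1192 and 2863 CPM. In mature vs pro-B, 2 of 16 tested were called higher and 1 lower, where 11.6% and 22.2% of all genes were, so the higher calls are at the background share. Smg1, a kinase of mRNA decay, gave much of the sum with 840, 53, 59 and 1257 counts. Cpsf2, a subunit of the cleavage complex, had 226, 46, 15 and 125 counts, and Upf1, a helicase of mRNA decay, had 218, 48, 35 and 177. The 20 histone chaperone and import genes summed to 2900, 1340, 1482 and 2222 CPM, with 3 of 20 called higher and 4 lower in mature vs pro-B, both near the shares of all genes (11.6% and 22.2%). Among them Nap1l1, a chaperone of H2A and H2B, had 236, 29, 56 and 486 counts, Atrx, which deposits H3.3 with DAXX, had 399, 24, 18.5 and 221, and Rbbp4, a subunit of CAF-1, had 246, 44, 35 and 168.

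S phase and G2/M genes were lower in mature than in pro-B cells, as the histone genes were. The 32 S phase genes summed to 3474 CPM in pro-B, 3325 in pre-B, 1260 in immature and 1330 in mature B cells, and 21 of 28 tested were called lower in mature vs pro-B and none higher, where 22.2% and 11.6% of all genes were. Gins2, of the replicative helicase complex, gave 365 of the 799 S phase counts in pre-B cells, with 104 in pro-B, 0 in immature and 12.8 in mature B cells. Without Gins2, a choice made after its values were seen, the sum was 3353, 1806, 1260 and 1315 CPM. Mcm6, of the replicative helicase, had 406, 53, 16 and 92 counts, and Rrm1, of ribonucleotide reductase, had 270, 28, 10 and 94. The 20 G2/M genes summed to 1569, 617, 408 and 380 CPM, and 13 of 17 tested were called lower in mature vs pro-B and none higher, against the same shares of all genes. Mki67, which encodes the proliferation marker Ki-67, had 634, 76, 38 and 115 counts, Top2a, a DNA topoisomerase, had 210, 14, 8 and 67, and Kif11, a spindle motor, had 74, 9, 0 and 16.

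In pre-B vs pro-B by CPM, 2 of 28 S phase genes tested were called higher and 11 lower, and of the G2/M genes none of 17 higher and 7 lower, where 13.3% of all genes were called higher and 25.2% lower. Per listed count 26 of the 28 and 17 of the 17 were called lower, where 80.7% of all genes were. The summed S phase genes without Gins2 had a log2 ratio of -0.89 by CPM, beside 0.86 for the histone genes. There were 1.34 histone counts per S phase count in pro-B cells, 4.52 in pre-B, 2.48 in immature and 1.17 in mature B cells without Gins2, and 1.29, 2.45, 2.48 and 1.16 with it. Ratios moved with length between the pro-B and pre-B libraries, and the part of length in this difference was not tested. In immature vs pre-B, where length moved little, the sum of the S phase genes had a log2 ratio of -1.40 with Gins2 and -0.52 without it, against -1.39 for the histone genes, and 8 of 16 tested were called lower and none higher, where 15% and 14.7% of all genes were.

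Markers of other cells also differed between the libraries. The 6 erythroid markers summed to 415 CPM in pro-B, 387 in pre-B, 248 in immature and 224 in mature B cells. The 6 markers of T and NK cells summed to 178 counts for pro-B, 5 for mature and 0 for both pre-B and immature B cells, with Cd3e at 0 in all but the mature library, where it had 1 count. The 6 myeloid markers summed to between 790 and 1049 CPM in the 4 libraries, with Csf1r at 0 in each. The 5 B lineage markers summed to 3993, 4300, 5706 and 5034 CPM. The 4 plasma cell markers summed to 316, 375, 282 and 111 CPM, highest in pre-B and lowest in mature B cells as the histone genes were by CPM, with a log2 ratio of -1.51 in mature vs pro-B. The largest of them was Xbp1, with 226, 233, 183 and 69.5 CPM. The part of other cells in the histone levels was not tested. None of the 1005 circRNAs of the series came from a histone gene of the rule, and 1 lncRNA entry carried a symbol of the rule, H2bc6, with 2 counts in pro-B cells.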

How the data were processed

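Long RNA of 4 sorted stages was sequenced, with 1 library per stage and no replicates. Reads were cleaned with fastp 0.18.0, rRNA reads were removed with Bowtie2 2.2.8, the rest were mapped with HISAT2 2.1.0 and transcripts were estimated with StringTie 1.3.4, per the study's methods. The mRNA and lncRNA tables that the authors deposited hold estimated counts that are not normalized, and the deposited FPKM values beside them are scaled by length and mapped fragments. The circRNA table that the authors deposited holds counts of back-spliced reads, used here for the genes of origin. The submitters' processing notes name mm9, whereas the RefSeq promoters are on GRCm38.p6, so no coordinates of the files were used. The miRNA table was not analysed here, and 0 columns of other samples were found.

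Counts were rounded to whole numbers for intervals. Ratios of CPM carry exact conditional (Clopper-Pearson) 95% intervals and shares Wilson intervals, which cover counting error only, since no molecular identifiers were used. A gene with 0 counts was set at a floor of 3 counts. Intervals were computed with scipy 1.17.1 and tables with pandas 2.3.3 and numpy 2.4.6 in Python 3.11.15, and matplotlib 3.10.9 drew the figures. Alternative scaling factors came from edgeR 4.0.16 (TMM) and DESeq2 1.42.0 (median of ratios) under R 4.3.3. The ratio test was tried on simulated counts with counting error alone. These counts held no spread between replicates and no sharing of reads between near-identical copies. Named are the 3 genes of each class with the most counts, the 3 called genes with the largest ratio in each direction, genes with 10 counts in exactly 1 library, H1 genes with any count and the 3 genes with the most counts of each other list. H4c3, H4c14 and the 4 genes above 1-fold in mature vs pro-B were chosen in part after their values were seen. The members, lists and comparisons were chosen with earlier results of these data known.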

Additional observations from a re-analysis of the deposited data

How the results depend on the processing

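The scale decided 2 of the 4 comparisons. For pre-B vs pro-B, the log2 ratio of all histone genes, 0.86 by CPM, was -1.01 per listed count and -1.09 by FPKM, and by these 2 scales the classes were -1.34 and -1.45 for H1, -0.86 and -0.97 for H2A, -1.20 and -1.27 for H2B, -0.47 and -0.58 for H3 and -1.11 and -1.22 for H4. For mature vs immature B cells it was 0.84 and 0.89 in place of -1.02, with 0.91 and 0.85 for H1, 0.86 and 0.83 for H2A, 0.58 and 0.59 for H2B, 0.79 and 0.96 for H3 and 1.07 and 1.18 for H4. The cause was not tested. TMM and median-of-ratios factors gave 1.04 and 1.13 for pre-B vs pro-B and -1.40 and -1.37 for mature vs pro-B, where FPKM gave -1.71. Only the 11 genes with whole counts, an alternative chosen after seeing the data, gave 0.076 for pre-B vs pro-B, -0.80 for mature vs immature and -1.99 for mature vs pro-B, and leaving out H1f2 gave -1.68 for the last. The 23 genes called higher in pre-B vs pro-B became 2 per listed count and 8 at a fold of 3, and the 5 called lower became 3 with TMM, 3 with median-of-ratios, 33 per listed count and 1 at a fold of 3. In mature vs immature B cells, the 2 called higher became 18 per listed count and 0 at a fold of 3, and the 16 called lower became 3 and 9. In mature vs pro-B, 1 gene was called higher with no filter and 1 with the fold of 2 alone. Of 88 alternative values for the main results, 63 moved by less than their limit, among them those for immature vs pre-B. No paired analysis was possible because there is 1 library per stage and the labels give each the same number. The low mRNA totals of the pre-B and immature libraries limit single genes, since 3 counts there are 12.5 and 13.4 CPM.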

Other observations

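The symbol rule leaves out 3 genes of the histone clusters, H2aw, H2bu2 and H4f16. Together they had 174 counts in pro-B, 76.1 in pre-B, 45.4 in immature and 24 in mature B cells, or 201, 317, 203 and 28.3 CPM. By CPM they were, as the 68 genes were, highest in pre-B and lowest in mature B cells, and per listed count they were highest in pro-B cells (47.6) and lowest in mature B cells (6.64).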
